A study of Bos taurus with 6 samples.

Results

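The cytosolic ribosomal protein genes were examined in bovine embryonic stem cells (bESCs) grown on living and on fixed feeder cells. A gene was taken as a member when its symbol was RPL or RPS followed by a number, with a paralog suffix allowed, or was RPLP0, RPLP1, RPLP2 or RPSA, and the RPS6K kinase genes were left out. This rule found 83 of the 19163 genes in the count table, 50 for the large (60S) and 33 for the small (40S) ribosomal subunit. The cells were F7, a pluripotent line of the Holstein Friesian breed derived from in vitro fertilization, so that all libraries came from 1 line. The MC-F7 group (labelled 1M-F7) grew on mouse embryonic fibroblasts (MEFs) that mitomycin C had stopped from dividing, and the MT-F7 group grew on MEFs fixed with methanol. Both groups had 15 passages, the same CTFR medium with fibroblast growth factor and the Wnt pathway inhibitor IWR1, and 3 libraries each. By the paper's methods, this medium was changed daily for MC-F7 and every other day for MT-F7. That difference cannot be told apart from the difference in feeders. Before RNA was extracted, both groups were put on gelatin so that feeder cells could settle, and the cells left floating were taken. The paper reports a higher share of reads aligned to the bovine genome in MT-F7 than in MC-F7. It proposes less feeder contamination on fixed feeders, and the part of mouse reads in the levels given below was not tested. Separate cultures are not named for the 3 libraries of either group, so the p-values given here measure only the spread between these libraries.

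Ribosomal proteins are made in near equal numbers, because a ribosome holds a single copy of most of them, and together with ribosomal RNA they form the subunits that decode mRNA and join amino acids. Their mRNAs begin with a terminal oligopyrimidine (TOP) tract, through which mTORC1 and LARP1 control their translation as a group. Pluripotent cells divide fast and make many ribosomes, and several members have paralogs that can take their place in the ribosome.

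Each library held between 21958386 and 24933430 counts on genes, and every tested member other than RPL3L had at least 1406 counts in each library. Levels are given as CPM, counts per 1000000 counts after scaling by the TMM factors of edgeR, and log2 fold changes are MT-F7 against MC-F7, so that values above 0 are higher in MT-F7. Of the fibroblast markers, 20 of 20 were tested and none was at 0. Their summed level was 640.4 to 826.3 CPM in MC-F7 and 1253 to 1413 CPM in MT-F7, with 8 higher and 1 lower in MT-F7. Of the pluripotent cell markers, 5 of 8 were in the table. Their summed level, most of it from POU5F1, was 935.3 to 1561 CPM in MC-F7 and 577.1 to 625.6 CPM in MT-F7. Of the 5, 4 were lower in MT-F7. SALL4 was not, at 37.3 ± 7.94 CPM in MC-F7 and 47.0 ± 12.1 CPM in MT-F7. POU5F1, a core factor of pluripotency, was detected in every library, at 1200 ± 329 CPM in MC-F7 and 522 ± 35.5 CPM in MT-F7, and SOX2, LIN28B and TDGF1 were not analysed here. These marker levels moved with the groups, and their part in the results below was not tested. In such bulk libraries, fewer cells of a type and less RNA per cell cannot be told apart.

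Few ribosomal protein genes differed between the feeders past the threshold. Of the 82 members that could be tested, 0 were higher and 1 was lower in MT-F7 by edgeR's quasi-likelihood test, with a threshold of 0.05 on the adjusted p. This was 1.22% of the members, whereas 23.2% of all 13001 tested genes passed the same test, 11.9% higher and 11.3% lower. At an unadjusted p under 0.05, 8 members passed (9.76%), beside 35.8% of all tested genes. RPL10L, whose product replaces RPL10 in the testis, had 0 counts in all 6 libraries, which allows a level of up to 0.12 to 0.137 CPM (3 counts), and was not tested. Such limits and counts cover counting error only.

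The fitted fold changes were small, and how many lay below 0 depended on the setting. Their range was -0.61 to 0.55 on the log2 scale, and 69 of 82 lay between -0.3 and 0.3. The median was -0.13, beside -0.003 over all genes tested, with 68 members below 0 and 14 above. Below 0 were 39 members without MC-F7 replicate 1, 52 without MT-F7 replicate 3 and 46 for the deposited TPM. When libraries were scaled to the summed counts of the members, 41 were below 0. That scaling makes the members' sum equal between libraries, so it centres them near 0 by construction. The median of the members was -0.11 with total counts only and -0.04 for the deposited TPM. With that scaling to the members it was 0.003, and the median of all genes moved to 0.12. The members' median also depended on single libraries. It was 0.02 without MC-F7 replicate 1, -0.23 without MC-F7 replicate 3 and -0.06 without MT-F7 replicate 3. The median standard error of a member was 0.185, beside 0.202 over all genes. For 78 of 82 members the 95% interval of the log2 fold change lay within -1 and 1, as it did for 61.6% of all genes. The 4 members whose interval reached below -1 were RPL3L, RPS23, RPL12 and RPL36AL.

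**Figure D1:**
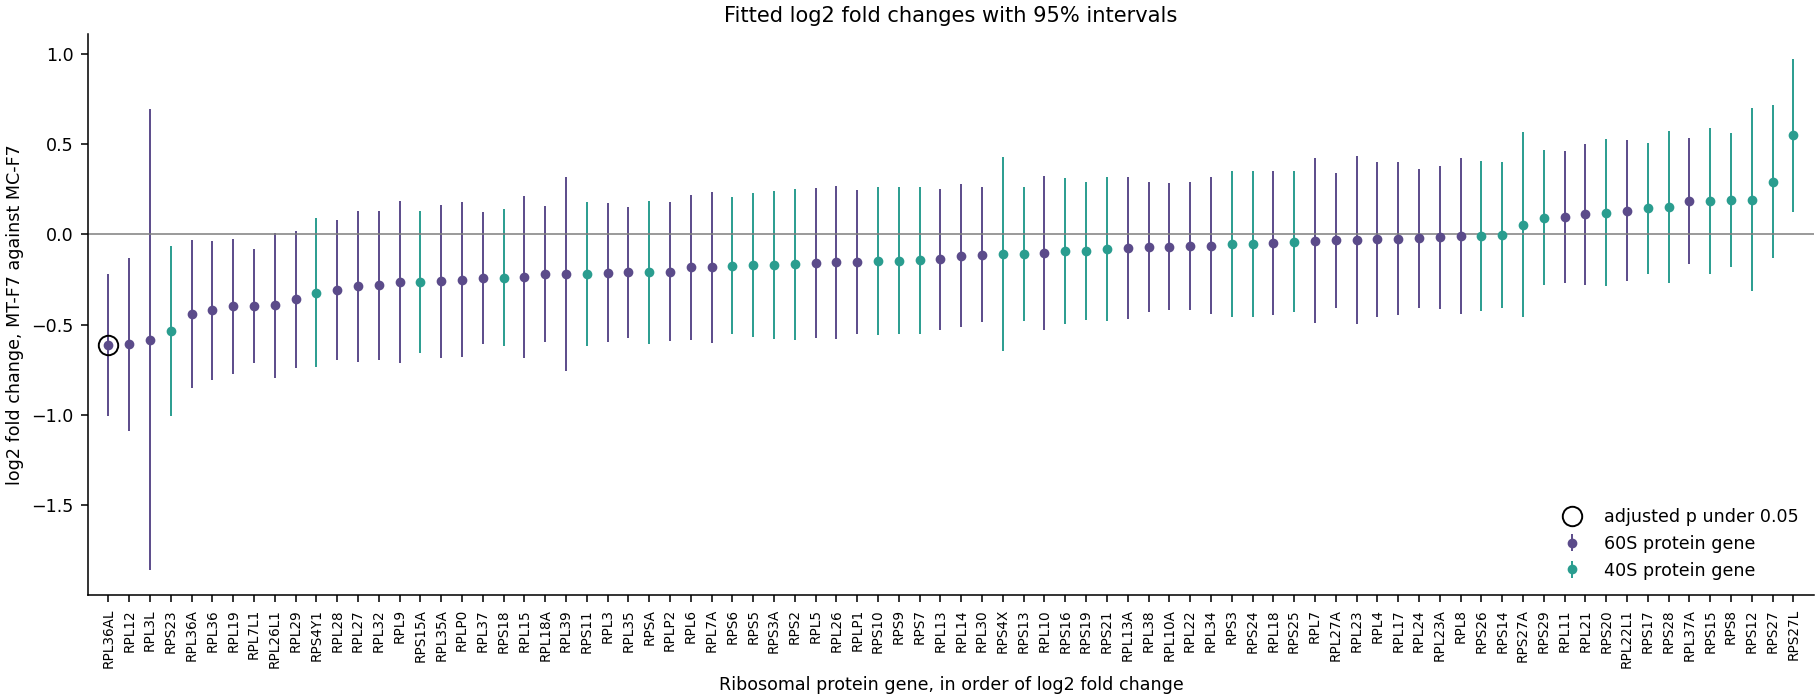
Fitted log2 fold change of each tested ribosomal protein gene in MT-F7 against MC-F7 (vertical axis), in order of size along the horizontal axis, with bars for the 95% interval and colours for the subunit. Most points lie between -0.3 and 0.3, 68 of 82 are below 0, and RPL36AL at -0.61 is the 1 gene past the threshold. The widest bar belongs to RPL3L, which had few counts.

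Together the members took a large share of each library, and this share varied more between libraries of a group than between the groups. It was 13.3%, 11.4% and 9.70% of all gene counts in the MC-F7 libraries 1 to 3, and 10.5%, 12.0% and 9.29% in the MT-F7 libraries. The groups overlapped, and their means were 11.5% ± 1.79 and 10.6% ± 1.36 (SD, n = 3). The genes of the mitochondrial genome took 16.3%, 19.8% and 28.3% of the MC-F7 libraries and 23.2%, 18.0% and 27.9% of the MT-F7 libraries, and within each group the order of the libraries was the reverse of that of the ribosomal protein share. Outside the mitochondrial genome, the members took 15.9%, 14.2% and 13.5% of MC-F7 counts and 13.7%, 14.6% and 12.9% of MT-F7 counts, which is a narrower range with the same order. By the deposited TPM, a measure per gene length, the share was 18.4% ± 3.11 and 17.7% ± 2.42.

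Most members followed this order of libraries. MC-F7 replicate 1 was the highest of its group for 81 of 82 members, and MT-F7 replicate 2 was the highest of its group for 58. Replicate 3 was the lowest for 66 members in MC-F7 (80.5%, beside 40.6% of all tested genes) and for 64 in MT-F7 (78.0%, beside 40.5%). The part of the mitochondrial share in this was not tested. With the libraries numbered 1 and 2 only, a choice made after the data were seen, 1 member was higher (RPS27L) and 5 were lower (RPL12, RPL26L1, RPL36A, RPL36AL and RPS23), beside 32.4% of all genes called.

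**Figure D2:**
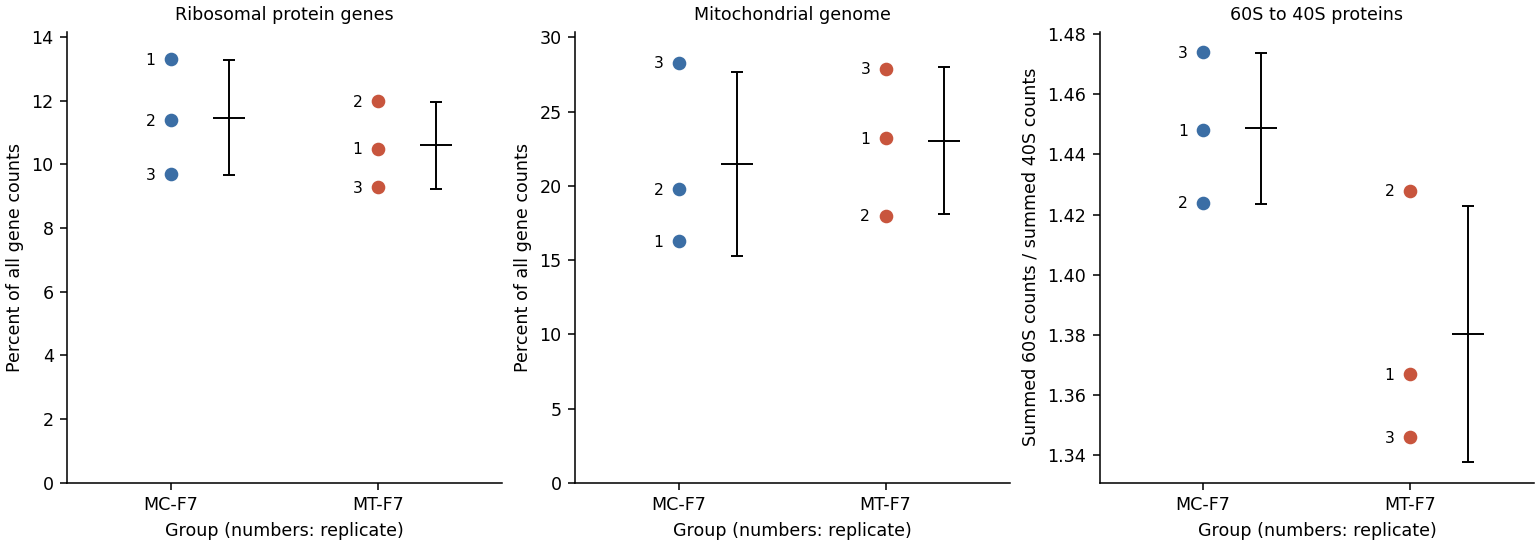
Percent of gene counts on ribosomal protein genes (left) and on the mitochondrial genome (middle), and the ratio of summed 60S to summed 40S counts (right), in each library, with the mean and SD (n = 3) beside the points and the replicate number at each. Replicate 3 has the lowest ribosomal protein share in both groups (9.70% and 9.29%) and the highest mitochondrial share (28.3% and 27.9%), and the groups overlap in all panels. The axis of the right panel does not start at 0.

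Of the 60S proteins, 49 were tested, 45 had a log2 fold change below 0, and their median was -0.16. The member past the threshold was RPL36AL, a paralog of RPL36A, and both encode the protein at the site where tRNA leaves the large subunit. RPL36AL measured 520, 448 and 349 CPM in the MC-F7 libraries and 293, 324 and 245 CPM in the MT-F7 libraries. Every MT-F7 library was below every MC-F7 library, and the group means were 439 ± 85.7 and 287 ± 39.4 CPM (SD, n = 3). The fitted level in MT-F7 was 0.654 times that in MC-F7, a log2 fold change of -0.61 with a standard error of 0.181 and an adjusted p of 0.027 in edgeR's test. It passed in 2 of the 6 fits that left out 1 library, with an adjusted p of 0.10 without MC-F7 replicate 2, 0.092 without MC-F7 replicate 1, 0.077 without MT-F7 replicate 1 and 0.060 without MT-F7 replicate 3. Its adjusted p was 0.20 with limma on log2(TPM + 1).

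RPL36A itself measured 779, 654 and 544 CPM in MC-F7 and 504, 566 and 386 CPM in MT-F7. These groups overlapped at the lowest MC-F7 and the highest MT-F7 library, and the log2 fold change was -0.44 with a standard error of 0.190 (adjusted p = 0.11, and 0.043 without MC-F7 replicate 3). A second line of the TPM table also carried the symbol RPL36A, with 52.4, 45.6 and 38.6 TPM in MC-F7 and 39.5, 46.1 and 45.7 TPM in MT-F7, and its log2 fold change by limma was -0.10 with a standard error of 0.144 (adjusted p = 0.71). That line was proportional to a count row with no ribosomal protein symbol, which was therefore not counted as a member.

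RPL12, which sits at the base of the stalk that recruits translation factors, had a fold change as large as that of RPL36AL. It measured 1830, 1630 and 1180 CPM in MC-F7 and 1190, 1120 and 729 CPM in MT-F7. The third MC-F7 library lay just below the first MT-F7 library, the log2 fold change was -0.61 with a standard error of 0.222, and the test was not passed (adjusted p = 0.065). The call turned on the setting, because RPL12 passed with DESeq2 (adjusted p = 0.028) and without MC-F7 replicate 3 (adjusted p = 0.016), while the adjusted p over the alternatives reached 0.32. RPL36 had 1800, 1290 and 1400 CPM in MC-F7 and 1020, 1200 and 1120 CPM in MT-F7, with no overlap, a log2 fold change of -0.42 and an adjusted p of 0.11. RPL7L1, a paralog of RPL7 that acts in the assembly of the large subunit, was the member with the smallest error. Its levels were 296, 275 and 303 CPM in MC-F7 and 230, 232 and 201 CPM in MT-F7, without overlap, and the log2 fold change was -0.40 with a standard error of 0.145 (adjusted p = 0.066). RPL7L1 passed with DESeq2 (adjusted p = 0.032) and in none of the 6 fits that left out 1 library.

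RPL19, which takes part in the contact between the subunits, had a log2 fold change of -0.40 and overlapping groups (adjusted p = 0.12). RPL29 was at 2450, 1940 and 2050 CPM in MC-F7 and 1650, 1860 and 1520 CPM in MT-F7, and RPL28 was at 1870, 1350 and 1460 CPM in MC-F7 and 1130, 1340 and 1310 CPM in MT-F7. Neither pair of groups overlapped, and the adjusted p was 0.16 for RPL29 and 0.24 for RPL28. In all, 6 of the 82 members (7.32%) had groups that did not overlap, each with MT-F7 below, whereas 20.1% of all tested genes had MT-F7 below and 19.9% had MT-F7 above. The sixth was the 40S gene RPS18.

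**Figure D3:**
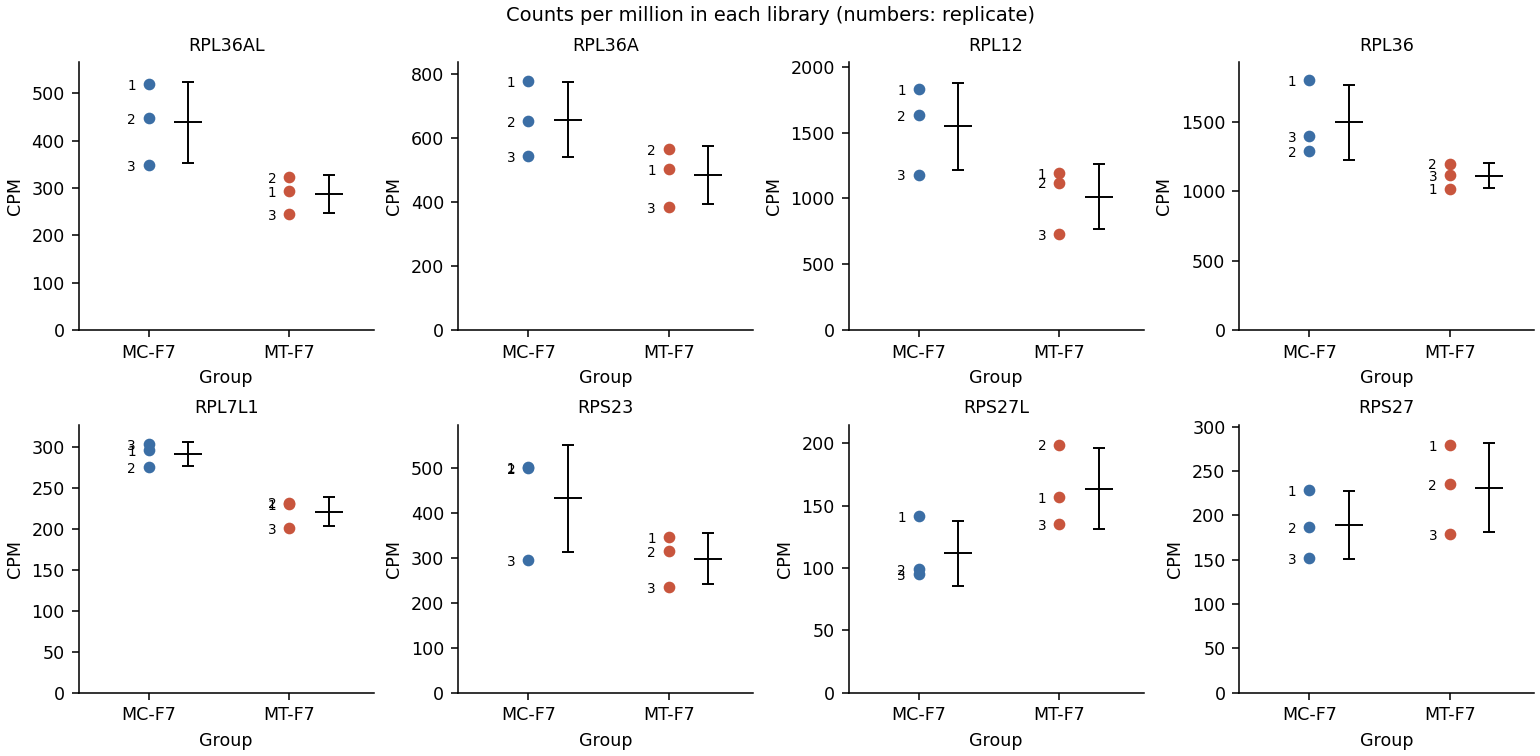
CPM of 8 ribosomal protein genes in each MC-F7 and MT-F7 library (numbers: replicate), with the mean and SD (n = 3) beside the points. The MT-F7 libraries lie below all MC-F7 libraries for RPL36AL, RPL36 and RPL7L1, and the groups overlap for RPL36A, RPL12, RPS23, RPS27L and RPS27. In MC-F7, replicate 3 is the lowest library for 6 of these 8 genes.

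The P stalk and the 5S particle showed small differences. RPLP0, the scaffold of the stalk, was at 2470 ± 480 CPM in MC-F7 and 2070 ± 313 CPM in MT-F7. Its partners RPLP1 and RPLP2 were at 2890 ± 504 and 1430 ± 208 CPM in MC-F7 and at 2600 ± 211 and 1240 ± 169 CPM in MT-F7. The log2 fold changes of the stalk genes were between -0.25 and -0.15, and each 95% interval included 0. RPL5 and RPL11, which bind 5S RNA and can hold back MDM2 when ribosome assembly fails, had overlapping groups. RPL5 was at 2670 ± 251 and 2400 ± 485 CPM, and RPL11 was at 828 ± 133 and 885 ± 66.6 CPM, in MC-F7 and MT-F7.

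Of the 40S proteins, 33 were tested, 23 had a log2 fold change below 0, none passed the test, and their median was -0.09. RPS23, which lies at the decoding centre and bears on accuracy, had the lowest value. It measured 503, 501 and 295 CPM in MC-F7 and 346, 315 and 235 CPM in MT-F7, so that the third MC-F7 library lay below the first and second MT-F7 libraries. The log2 fold change was -0.54 with a standard error of 0.219 (adjusted p = 0.097, and 0.0087 without MC-F7 replicate 3). RPS18, a protein of the head of the small subunit, was at 3910, 3280 and 3200 CPM in MC-F7 and 2770, 3150 and 2880 CPM in MT-F7. Its groups did not overlap, but the highest MT-F7 and the lowest MC-F7 library were close, and the log2 fold change was -0.24 (adjusted p = 0.36).

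RPS27L had the highest fold change of all members. This paralog of RPS27 is known as a target of p53. It measured 142, 98.9 and 95 CPM in MC-F7 and 157, 199 and 135 CPM in MT-F7, and the first MC-F7 library lay above the third MT-F7 library. The log2 fold change was 0.55 with a standard error of 0.195, and the adjusted p was 0.060. The call turned on the setting, because RPS27L passed in 2 of 6 fits that left out 1 library (adjusted p 0.016 without MC-F7 replicate 1 and 0.023 without MT-F7 replicate 3) and in 5 of 12 other settings. Its counts were identical to those of a second row of the table, so its level is uncertain. RPS27 was at 228, 187 and 152 CPM in MC-F7 and at 279, 235 and 179 CPM in MT-F7, with overlap (adjusted p = 0.31).

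RPS27A is made as a fusion with ubiquitin, and was at 1300 ± 297 CPM in MC-F7 and 1350 ± 388 CPM in MT-F7. FAU, whose symbol the rule does not take, carries a ubiquitin-like protein and a 40S protein, and was at 1180 CPM in the MC-F7 mean and 1130 CPM in the MT-F7 mean (adjusted p = 0.85).

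The ratio of summed 60S to summed 40S counts compares the same genes in each library, but longer genes weigh more in it. It was 1.448, 1.424 and 1.474 in MC-F7, against 1.367, 1.428 and 1.346 in MT-F7. The second MT-F7 library lay just above the second MC-F7 library, and the group means were 1.45 ± 0.0254 and 1.38 ± 0.0426 (SD, n = 3). Without RPL4 and RPS18, the genes with the most counts in each subunit, the ratio was 1.46 ± 0.0249 and 1.37 ± 0.0318, and no MT-F7 library reached the lowest MC-F7 library. The groups were also apart when the deposited TPM were summed, with 1.43 ± 0.0163 and 1.33 ± 0.0338. No test was made of this score over the members.

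Paralogs were compared with their parent genes as the percent of counts, since some paralogs replace the parent in the ribosome. Of the 9 pairs considered, 6 had enough counts for an exact two-sided permutation test, whose smallest possible p with 3 against 3 libraries is 0.1. RPL36AL reached 66.8%, 68.5% and 64.2% of the RPL36A counts of the MC-F7 libraries, against 58.1%, 57.2% and 63.6% for the MT-F7 libraries, and the groups did not overlap (exact p = 0.1, adjusted 0.3). The third libraries were nearly level, at 64.2% and 63.6%, and this was the 1 pair of the 6 without overlap.

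RPL22L1, an RNA-binding paralog, was at 26.1%, 26.8% and 22.7% of RPL22 in MC-F7, against 31.5%, 32.0% and 23.1% in MT-F7, with overlap (exact p = 0.3). RPS27L was at 62.5%, 53.0% and 62.6% of RPS27 in MC-F7, against 56.3%, 84.6% and 75.6% in MT-F7. RPL7L1 was at 12.9%, 13.9% and 19.2% of RPL7 and at 11.4%, 10.2% and 14.2% in the same order of groups. These values spread widely within a group, and the groups overlapped. RPL26L1 was at 7.38% ± 0.739 of RPL26 in MC-F7 and 6.37% ± 0.480 in MT-F7, and RPS4Y1 was at 34.7% ± 4.66 and 30.1% ± 4.06 of RPS4X. All 6 adjusted p were 0.3. RPL3L, which replaces RPL3 in striated muscle, was covered by few reads (19, 7 and 12 in MC-F7, against 13, 11 and 4 in MT-F7), against 2880 ± 256 and 2480 ± 328 CPM of RPL3. RPL39L was not analysed here. Close paralogs and processed copies of ribosomal protein genes can share reads, and how such reads were counted is not given in the sources used here, so the split between near-identical genes is uncertain.

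Levels between genes were compared by the deposited TPM. These values are printed without rescaling and keep library size, so a difference between groups in them also carries that of library size. The highest were RPLP1, RPS10, RPS18, RPS15 and RPL23A. RPLP1 was at 1380, 1150 and 948 TPM in MC-F7 and 1080, 1300 and 1060 TPM in MT-F7, and RPS10, a protein of the head of the 40S subunit, was at 1400, 1150 and 912 TPM and at 1060, 1250 and 1110 TPM. These values were within the spread of each other in both groups. RPS18 was at 1010 ± 127 TPM in MC-F7 and 933 ± 94.7 TPM in MT-F7. RPS15, which is needed for the export of the small subunit, was at 773 ± 141 and 964 ± 183 TPM, and RPL23A, at the mouth of the peptide tunnel, was at 787 ± 136 and 854 ± 146 TPM. RPS15 and RPL23A changed places between the groups, within their SDs.

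Of the members, 29 were among the 50 genes with the highest mean TPM of all and 54 among the 100 highest. The median member was at 318 TPM, and 69 were within 10-fold of RPLP1. The 5 lowest tested members were all paralogs. RPL22L1 was at 44.8 ± 7.49 TPM in MC-F7 and 54.0 ± 12.8 TPM in MT-F7, RPS4Y1 at 39.8 ± 9.22 and 34.9 ± 7.71, RPL26L1 at 27.9 ± 6.79 and 23.3 ± 4.60, and RPL7L1 at 24.1 ± 0.414 and 20.2 ± 2.51. RPL3L was at 0.0759 ± 0.0361 and 0.0559 ± 0.0283 TPM, far below the others. The order was nearly the same on both feeders, since the correlation of log2 mean TPM between the groups over the 82 tested members was 0.994 (across genes, which share libraries and are not independent). A member's rank moved by a median of 2 places, and the largest move was that of RPL12 from 20 to 37. RPS27 moved from 70 to 59 and RPS23 from 60 to 70.

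**Figure D4:**
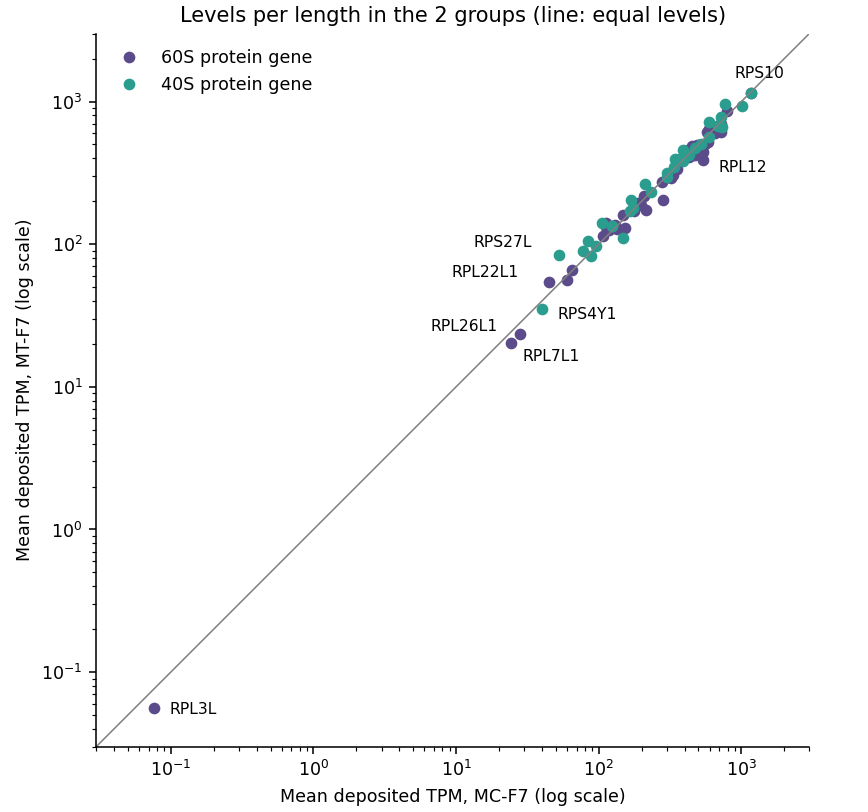
Mean deposited TPM (n = 3 libraries) of each tested ribosomal protein gene in MC-F7 (horizontal axis) and MT-F7 (vertical axis), both on log scales, with a line at equal levels. The values were not rescaled and keep library size. The points follow the line from RPL7L1 at 24.1 and 20.2 TPM to RPLP1 and RPS10 above 1000 TPM, and RPL3L lies alone under 0.1 TPM.

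Other genes of ribosome production were compared in the same fit. Among 17 other products of TOP mRNAs, among them translation elongation factors, none was higher or lower at the threshold, and the median log2 fold change was -0.12, close to that of the ribosomal protein genes. The lowest of them was PABPC1, the poly(A)-binding protein, at 1160 ± 227 CPM in MC-F7 and 731 ± 226 CPM in MT-F7 (adjusted p = 0.059). EEF1A1, which brings tRNA to the ribosome, was at 3960 ± 815 and 3900 ± 1030 CPM. Of 8 dedicated chaperones of ribosomal proteins, 0 passed and 7 were below 0, with a median of -0.23. Without MC-F7 replicate 3, 2 of the TOP products and 1 chaperone passed, beside 23.4% of all genes. Without MT-F7 replicate 3, 1 TOP product did, beside 23.3%.

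Many factors that assemble ribosomes were lower in MT-F7. Of 47 ribosome biogenesis factors, 17 were lower and 0 higher (36.2% called, beside 23.2% of all genes), 43 were below 0, and the median log2 fold change was -0.39. Their summed level was 6262, 5823 and 6040 CPM in MC-F7 and 4713, 4580 and 4318 CPM in MT-F7, with no overlap. DDX21, an RNA helicase of the nucleolus, fell from 64.5 ± 2.49 to 33.5 ± 3.57 CPM, with an adjusted p of 6.0e-04. PPAN, an assembly factor of the 60S subunit, fell from 249 ± 35.8 to 144 ± 22.7 CPM (adjusted p = 0.0048). NOP2, an RNA methyltransferase, fell from 231 ± 32.5 to 135 ± 12.8 CPM (adjusted p = 0.0036), and RPF2, which helps to build the 5S particle into the 60S subunit, fell from 30.5 ± 2.10 to 19.2 ± 2.75 CPM (adjusted p = 0.011). RPF2 did not pass with limma on log2(TPM + 1) (adjusted p = 0.053), and RPF2 and NOP2 did not pass when libraries were scaled to the summed counts of the members (0.058 and 0.067). The biogenesis factors past the threshold numbered 6 without MC-F7 replicate 2, 7 without MT-F7 replicate 1 and 9 without MT-F7 replicate 2. In those fits, 14.5%, 16.3% and 16.9% of all genes were called, so an excess over all genes was not seen in every fit. With limma on log2(TPM + 1), 6 of the 47 factors passed, beside 14.1% of all genes, so no excess was seen there either. The summed pluripotent markers, mostly POU5F1, were also lower and the summed fibroblast markers higher in every MT-F7 library than in any MC-F7 library. The part of these markers in the lower biogenesis factors was not tested. The difference between this list and the ribosomal protein genes was not tested either.

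Of 15 genes of RNA polymerase I and its factors, which make ribosomal RNA, 4 were lower and 1 was higher (33.3% called, beside 23.2% of all genes), and the median log2 fold change was -0.27. The polymerase subunit POLR1F fell from 38.2 ± 5.17 to 19.5 ± 4.48 CPM, and the initiation factor RRN3 from 51.1 ± 11.1 to 30.2 ± 1.86 CPM. TTF1, a termination factor, fell from 76.1 ± 11.9 to 44.0 ± 0.685 CPM. UBTF, which binds the promoter of the ribosomal RNA genes, rose from 63.6 ± 2.87 to 96.2 ± 8.76 CPM. Their adjusted p were 0.0030 for POLR1F, 0.0072 for RRN3, 0.0028 for TTF1 and 0.0094 for UBTF. Scaled to the summed counts of the members, RRN3 and TTF1 did not pass (0.11 and 0.062). The fifth gene was POLR1C (adjusted p = 0.031).

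Of 14 genes of mTORC1 and the regulators of TOP mRNAs, 2 were lower and 0 higher (14.3% called, beside 23.2% of all genes), and the median was 0.05. EIF4EBP1, which mTORC1 phosphorylates to release cap-dependent translation, fell from 99.9 ± 8.69 to 58.2 ± 5.34 CPM (adjusted p = 0.0024). LARP4B, an RNA-binding protein of the La family, fell from 50.7 ± 14.6 to 25.6 ± 7.46 CPM (adjusted p = 0.0093). LARP4B did not pass with limma on log2(TPM + 1) or log2(TPM + 0.1) (0.071 and 0.058), nor when libraries were scaled to the summed counts of the members (0.11). LARP1, the repressor of TOP mRNAs, was at 388 ± 66.1 and 276 ± 40.3 CPM (adjusted p = 0.060). Without MC-F7 replicate 3, 5 genes of this list passed, beside 23.4% of all genes.

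**Figure D5:**
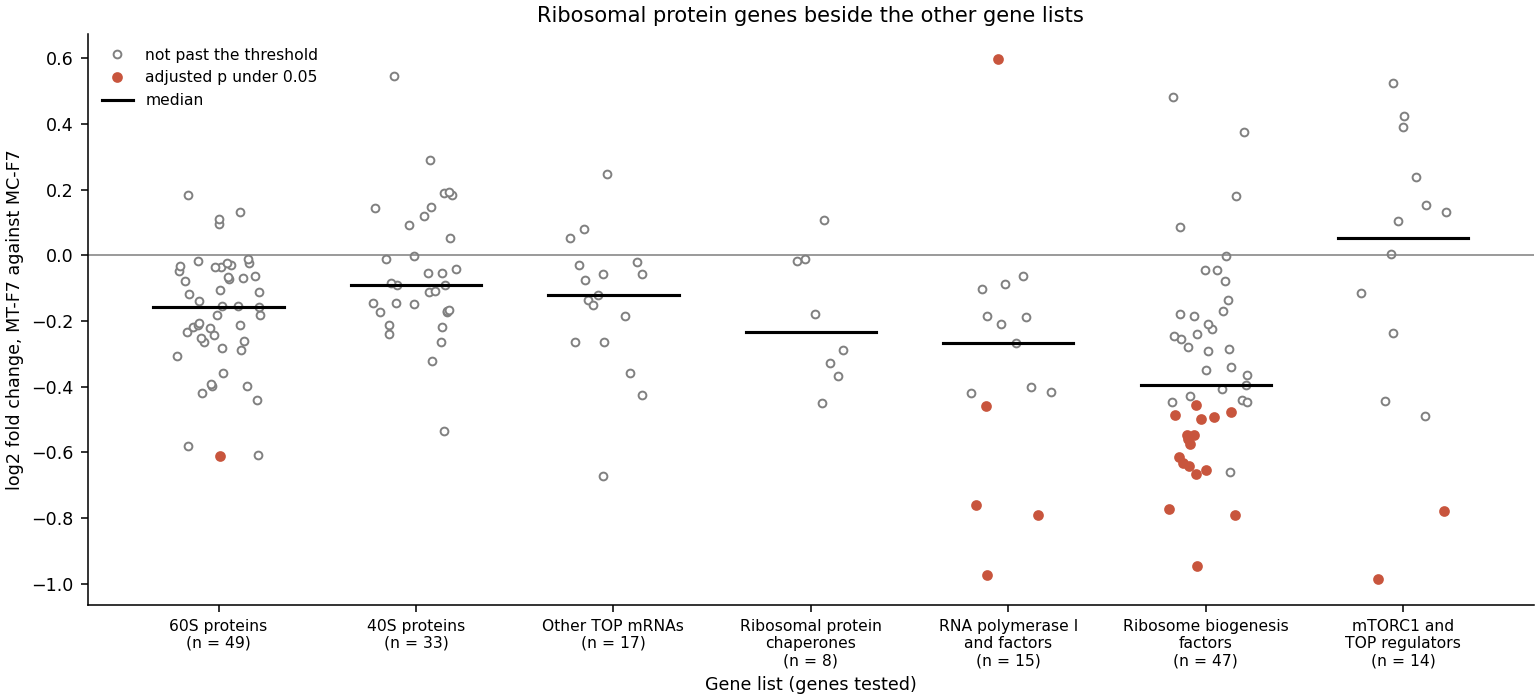
Log2 fold change of each tested gene in MT-F7 against MC-F7 (vertical axis) for the 60S and 40S protein genes and the other gene lists (horizontal axis), with filled points for an adjusted p under 0.05 and a line at each median. The 60S and 40S protein genes have 1 and 0 filled points and medians of -0.16 and -0.09, and the ribosome biogenesis factors have 17 filled points, all below 0, with a median of -0.39.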

How the data were processed

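RNA of bovine F7 cells was sequenced in 3 MC-F7 and 3 MT-F7 libraries. The authors aligned paired-end reads with HISAT2 2.0.5, counted them with featureCounts 1.5.0-p3 and deposited raw counts per Entrez gene. Symbols came from RefSeq, and 89 of 19163 genes had none. The deposited TPM values were proportional to the counts of each member across libraries and therefore keep library size. They were rescaled to 1000000 per library for tests and shares. Genome build, strand setting and treatment of shared reads are not given in the sources used here.

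Low genes were removed by filterByExpr (minimum count 10 and total 15), and counts were normalized by TMM and compared by the quasi-likelihood test of edgeR 4.0.16 (R 4.3.3), two-sided, without a block, with Benjamini-Hochberg adjustment over all tested genes and a threshold of 0.05. In simulated data with 13049 genes tested, the quasi-likelihood test recovered 100 of 100 genes changed by 2 on the log2 scale and 84 of 100 changed by 1, and 3.66% of its calls were unchanged genes. Smaller changes, such as those of the members, were not simulated. The simulation gave every gene the same spread beyond counting error and drew genes independently. Its rates may therefore not hold for the real libraries. DESeq2 1.42.0 and limma 3.58.1 were alternatives.

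The members and lists were chosen with earlier results of these data known. The text names members past the threshold, the 10 with the largest fold changes, the 5 highest and 5 lowest by TPM, paralog pairs, stalk, 5S particle and ubiquitin fusion genes, and up to 4 genes per list. RPL4, RPL28, RPL29, POLR1C, PABPC1, EEF1A1 and LARP1 were named after their values were seen. 1 gene named by this rule is not reported here.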

Additional observations from a re-analysis of the deposited data

How the results depend on the processing

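The number of ribosomal protein genes past the threshold stayed at 1 (RPL36AL) with RLE factors, with total counts, with TMM factors computed without the members, without the mitochondrial genome and with at least 10 counts in every library. It was 2 with all genes of at least 1 count, 4 with DESeq2, 0 with limma on log2(TPM + 1) or log2(TPM + 0.1), and 0 to 5 with 1 library left out. With alternatives chosen after the data were seen, it was 6 with the libraries numbered 1 and 2 only and 2 with libraries scaled to the summed counts of the members. Of all genes, 19.2% were called with all genes of at least 1 count, 20.5% with DESeq2 and 14.1% with limma on log2(TPM + 1). With 1 library left out, 14.5% to 23.4% of all genes were called. The share was 32.4% with the libraries numbered 1 and 2 only and 16.2% with libraries scaled to the members. RPL36AL passed in 10 of 12 settings other than leaving out a library. The median log2 fold change of the members ranged from -0.234 to 0.019 with 1 library left out. The difference between the groups in the share of counts on members, -0.852 percentage points, was 0.060 without MC-F7 replicate 1 and -1.733 without MC-F7 replicate 3. Where the cause of a change is not given by the setting itself, the cause was not tested.

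Of the other lists, the products of TOP mRNAs had 1 gene past the threshold with all genes of at least 1 count, 2 with DESeq2, 4 with the libraries numbered 1 and 2 only and 0 to 2 with 1 library left out. With the libraries numbered 1 and 2 only, 1 chaperone and 6 genes of the mTORC1 list passed. Ribosome biogenesis factors numbered 6 with limma at either pseudocount, and 6 to 16 with 1 library left out. The mTORC1 list had 1 with limma at either pseudocount and 2 to 5 with 1 library left out. The chaperones then had 0 to 1, and RNA polymerase I 4 to 6. Beside these counts, 19.2% of all genes were called with all genes of at least 1 count and 20.5% with DESeq2. The share was 14.1% with limma on log2(TPM + 1) and 20.2% without MC-F7 replicate 1. The shares for the libraries numbered 1 and 2 only and for the other fits without 1 library are given above.

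With the replicate number as a block, 9 ribosomal protein genes passed (1 higher and 8 lower), and so did 36.0% of all tested genes, 3 TOP products, 8 genes of RNA polymerase I, 29 biogenesis factors, 2 chaperones and 7 genes of the mTORC1 list. The deviations from the group means of libraries with the same number had correlations of 0.134, 0.0445 and 0.417 across genes, and the first MC-F7 library was closest to the second MT-F7 library (0.279), so the numbers were not taken to pair the libraries.

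The log2 fold change of some named genes crossed 0 in other settings, and none of these genes passed the test in any setting. Scaled to the summed counts of the members, it was 0.088 for FAU, 0.033 for RPL10, 0.061 for RPL22, 0.111 for RPL23A, 0.086 for RPL7 and 0.022 for RPS4X. With limma at either pseudocount it was 0.030 for FAU, 0.021 for RPL22, 0.068 for RPL23A and 0.035 for RPL7. It was 0.004 for RPL23A with total counts and 0.025 for RPL7 with the libraries numbered 1 and 2 only. With 1 library left out it ranged from -0.153 to 0.076 for FAU, from -0.280 to 0.050 for RPL10, from -0.003 to 0.231 for RPL11, from -0.142 to 0.035 for RPL22, from -0.007 to 0.262 for RPL22L1, from -0.121 to 0.121 for RPL23A, from -0.312 to 0.000 for RPL26, from -0.434 to 0.001 for RPL39, from -0.178 to 0.133 for RPL7, from -0.263 to 0.021 for RPS10, from -0.128 to 0.261 for RPS27A and from -0.325 to 0.105 for RPS4X.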
